A study of Mus musculus with 6 samples.

Results

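The serpins are a superfamily of protease inhibitors, and 48 of the 19938 genes measured on the arrays of this study belong to it by name. They were chosen as every gene whose single symbol in the array annotation begins with Serpin, and each was measured by 1 probe set. An inhibitory serpin offers the protease an exposed loop as bait, and once the loop is cut the serpin changes shape and traps the enzyme. The liver secretes many of the serpins of plasma, which restrain coagulation, fibrinolysis, complement and the elastase of neutrophils, and some members carry hormones or help proteins to fold without inhibiting a protease. The letter after Serpin gives the clade: most clade A members are secreted, and clade B members mostly act inside cells.

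The livers came from 3 Lkb1KOlivad mice (B253, B304, B305) and from 3 controls labelled WT (B256, B267, B302), all female, with 1 array per mouse. Lkb1KOlivad mice carry floxed Lkb1 alleles and a tamoxifen-inducible Cre driven by the hepatocyte-specific transthyretin promoter, both on the FVB/N background, and the controls were Cre-negative littermates with the same floxed alleles, so that both groups share the floxed gene and only the mutants carry the transgene. In general, the study injected 2 doses of 1.5 mg of tamoxifen per mouse at 8 to 12 weeks of age and examined most mice 15 days later. The livers on the arrays were from fasted mice by the study's description, a state that the labels do not give. The comparison addresses which transcripts of whole liver differ with the deletion of Lkb1 in hepatocytes. Effects of the transgene itself cannot be told apart from those of the deletion.

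Values are log2 RMA signals, in which a step of 1 is a doubling, and a log2 fold change is the mutant mean minus the control mean, given with its standard error (SE). Where 3 values of a group follow each other, they stand in the order B253, B304, B305 for mutants and B256, B267, B302 for controls. *Stk11*, the gene of Lkb1, had signals of 6.42 to 6.52 in the mutant livers and of 7.96 to 8.24 in the controls, which gives a log2 fold change of -1.64 with SE 0.119 (limma, adjusted p = 0.00705), and no other gene of the 19938 had an adjusted p under 0.05 (1 gene, or 0.00502%). Array medians lay between 5.03 and 5.08. The hepatocyte markers, 8 measured of 10, were bright, from *Hnf4a* at 9.74 to *Alb* at 12.60, with a median log2 fold change of 0.03 and no marker at an unadjusted p under 0.05. Among the other cell types, the 10 stellate cell markers had a median of -0.25, and 0 had a log2 fold change above 0, beside 51.6% of all genes. At an unadjusted p under 0.05, 3 were lower (*Lrat*, *Ngfr* and *Rgs5*), beside 1.51% of all genes. Their summed signal (log2) was 10.45 to 11.06 in the mutants and 10.75 to 11.18 in the controls. The median was -0.17 for 10 sinusoidal endothelial cell markers (summed signal 10.176 to 10.216 in mutants, 10.222 to 10.519 in controls, narrowly without overlap) and -0.14 for 10 Kupffer cell markers (10.75 to 10.999 and 10.64 to 11.39). It was 0.14 for 8 neutrophil markers (8.46 to 9.16 and 8.13 to 8.99) and 0.01 for 7 T and NK cell markers (7.24 to 7.41 and 7.44 to 7.65). The T and NK cell sums did not overlap, and *Nkg7* (log2 fold change -0.54) was lower at an unadjusted p under 0.05. *Cd3g* (-0.39) and *Cd3e* (-0.22) also lay below 0, whereas 4 of the 7 lay above 0. Of those 4, *Klrb1c*, *Gzma* and *Ncr1* were dim, with mean signals of 3.14, 3.90 and 3.59. The 6 measured cholangiocyte, 4 mesothelial and 4 pancreatic acinar cell markers had medians of 0.02, 0.07 and -0.04. The mesothelial marker *Upk1b* was higher at an unadjusted p under 0.05 (log2 fold change 0.73), beside 1.52% of all genes. In whole liver, fewer cells of a type and less RNA per cell cannot be told apart.

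The serpins ranged from bright to dim, and clade set them apart only in part: clade B was almost wholly dim, whereas clade A spread over the range. Probe sets differ in how strongly they bind their target, so a signal places a gene on the array but does not rank serpins by abundance. In the top 10% of all genes, which began at a signal of 8.07, lay 10 serpins, whereas 31 lay below the median gene at 5.26. The bright serpins were 5 of the 15 clade A genes, both clade F genes and the single genes of clades C, D and G. Signals in clade A ran from 3.72 (*Serpina9*) to 11.12 (*Serpina3n*), with 5 genes below the median gene and 5 between it and the top 10%. In clade B, 23 of 24 genes lay below the median gene, from *Serpinb3a* at 2.22, and *Serpinb6a*, an intracellular inhibitor, was the exception at 6.12. *Serpine3* lay at 5.22, and *Serpini1* (neuroserpin, a brain inhibitor) and *Serpini2* lay at 3.68 and 2.72. *Serpinh1* (Hsp47), the collagen chaperone of the endoplasmic reticulum, lay near the median gene at 5.28. The bright group was set well apart, as its dimmest member, *Serpinf2*, had a signal of 9.57 and the next gene, *Serpina1d*, one of 7.54.

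**Figure D1:**
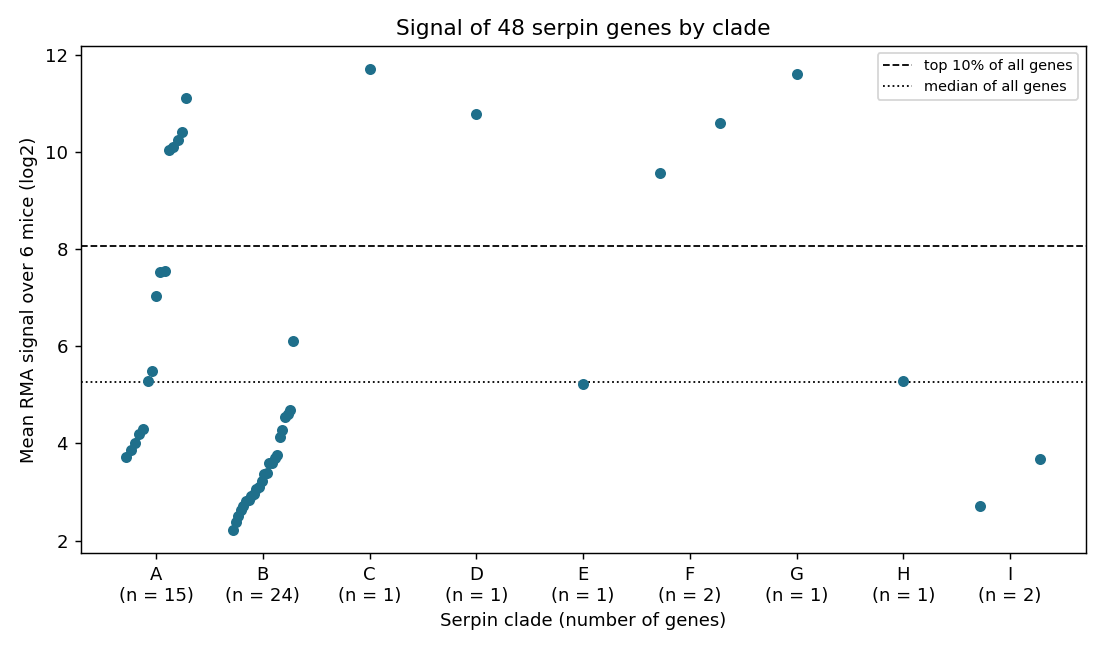
Mean RMA signal (log2) over the 6 mice for each of the 48 serpin genes, 1 point per gene, by clade, with the number of genes in brackets. The dashed line marks the top 10% of all genes (8.07) and the dotted line the median gene (5.26); 23 of the 24 clade B genes lie below the dotted line.

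No serpin passed the test between the genotypes. At an adjusted p under 0.05, 0 of 48 were called by limma (adjusted p = 0.9997 for every serpin). At an unadjusted p under 0.05 from limma, 3 of 48 serpins (6.25%) differed, all lower in the mutants, beside 3.03% of all genes in either direction and 1.51% lower. The 3 were *Serpina12*, *Serpina4-ps1* and *Serpina5*, all of clade A, and 0 serpins were higher at that p, beside 1.52% of all genes. All 3 mutant values lay below all 3 control values for 2 serpins (4.17%), beside 3.7% of all genes, and above them for 2 others (4.17%), beside 3.46%. In all, 4 serpins (8.33%) had groups that did not overlap, beside 7.16% of all genes, a share close to that of the array.

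Over the family, 35 of 48 serpins had a log2 fold change above 0 (72.9%, beside 51.6% of all genes) and 13 below, with a median of 0.08 beside 0.00 for all genes. Over the serpins of each mouse, the median deviation from the control mean was -0.001, 0.093 and 0.039 in the mutants and -0.067, 0.077 and 0.0077 in the controls. The groups overlapped, and the shift is of the size of the spread between mice (pooled SD 0.061). The median reach to each side of the 95% intervals of the 48 log2 fold changes was 0.34, close to the 0.32 of all genes.

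**Figure D2:**
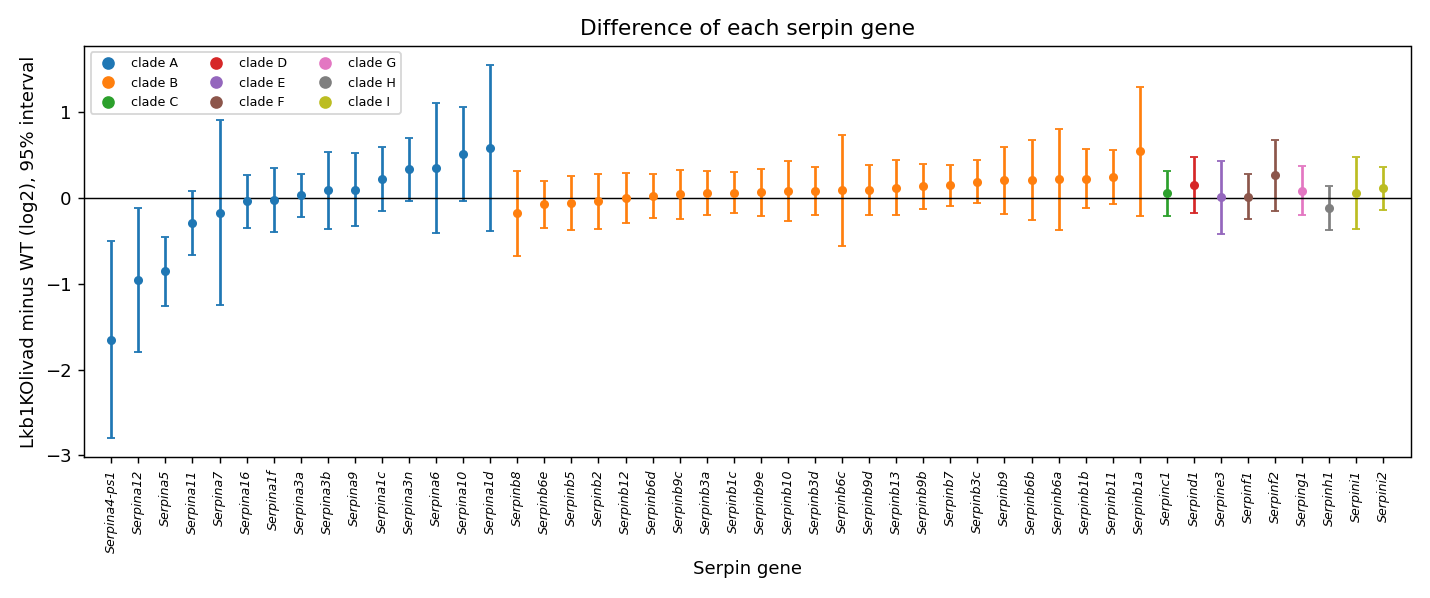
Log2 fold change (Lkb1KOlivad minus WT) of each of the 48 serpin genes with its 95% interval from limma, coloured by clade and ordered within it. *Serpina4-ps1*, *Serpina12* and *Serpina5* have intervals wholly below 0, and no interval lies wholly above 0.

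*Serpina4-ps1*, annotated as a transcribed pseudogene (probe set 10398011), had the lowest log2 fold change of all 19938 genes, just beyond that of *Stk11*. Its signals were 8.05, 9.74 and 10.47 in the mutants and 11.31, 11.06 and 10.86 in the controls. The groups did not overlap, but the mutant mice were spread over more than 2 log2 units and B253 lay far below the others. The means were 9.42 ± 1.24 (SD, n = 3) and 11.07 ± 0.223 (SD, n = 3), a log2 fold change of -1.65 (0.504 SE, 95% interval -2.80 to -0.51), or 31.8% of the control signal. Without B253 the log2 fold change was -0.97. A two-sided exact permutation test over the 6 mice returned p = 0.1, and this design allows no smaller value.

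*Serpina5* (probe set 10398019) encodes the protein C inhibitor, a heparin-binding inhibitor of activated protein C and other proteases. Its signals were 4.88, 5.05 and 5.25 in the mutants and 6.18, 5.99 and 5.57 in the controls. The groups did not overlap, and the mutant values lay close together. The means were 5.06 ± 0.185 (SD, n = 3) and 5.91 ± 0.313 (SD, n = 3), a log2 fold change of -0.85 (0.176 SE, 95% interval -1.25 to -0.45), or 55.3% of the control signal. By unadjusted p (0.00101 from limma) *Serpina5* ranked 18 among all genes. The log2 fold change was -1.03 to -0.72 when each mouse was left out in turn, and the exact permutation test gave p = 0.1. Its mean signal of 5.48 was above that of 54.8% of all genes.

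*Serpina12* (probe set 10402428) encodes vaspin, an adipokine that inhibits a kallikrein and is named for visceral fat. Its signals were 7.33, 5.88 and 6.43 in the mutants and 6.98, 8.05 and 7.49 in the controls. Mutant B253 lay above control B256, so the groups overlapped. The means were 6.55 ± 0.727 (SD, n = 3) and 7.51 ± 0.538 (SD, n = 3), a log2 fold change of -0.96 (0.370 SE, 95% interval -1.80 to -0.12; exact permutation test, p = 0.2). Without mutant B304 the log2 fold change was -0.63, and the unadjusted p was then above 0.05, as it was without control B267 (-0.69), control B302 (-0.96) or mutant B305 (-0.90). The adipocyte markers *Lep*, *Adipoq* and *Plin1*, 3 measured of 4, had a median log2 fold change of -0.05 and a summed signal of 6.31 to 6.44 in the mutants and of 6.32 to 6.55 in the controls.

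**Figure D3:**
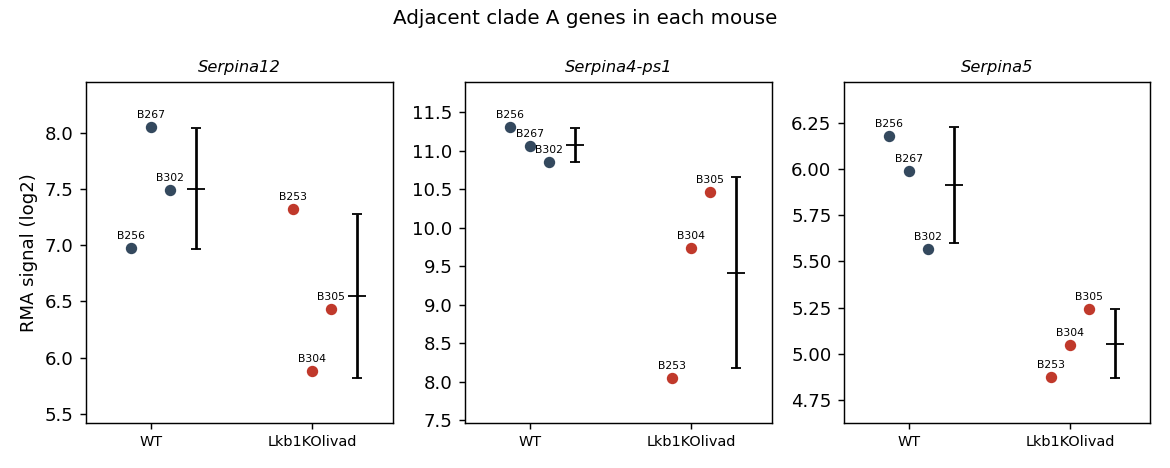
RMA signal (log2) of *Serpina12*, *Serpina4-ps1* and *Serpina5* by genotype, 1 point per mouse with its number, where black marks give the group mean ± SD and each gene has an own axis. The groups overlap for *Serpina12* only, and B253 is the lowest mutant mouse for *Serpina4-ps1* and *Serpina5* but the highest for *Serpina12*.

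These 3 genes follow each other in the cluster of clade A genes. Of the 15 clade A genes measured, 14 lie in this cluster and *Serpina7* lies elsewhere. In the order of the GRCm38.p6 annotation, *Serpina4-ps1* and *Serpina5* are direct neighbours, and 1 gene model separates *Serpina12* from *Serpina4-ps1*. On the *Serpina12* side the next gene was *Serpina9*, with a log2 fold change of 0.10 (0.188 SE), and then *Serpina11* with -0.29 (SE 0.163). On the *Serpina5* side the next were *Serpina3a* with 0.03 (SE 0.110) and *Serpina3b* with 0.09 (SE 0.198). The flanking genes thus had intervals that include 0, although *Serpina9*, *Serpina3a* and *Serpina3b* were dim, with mean signals of 3.72, 4.01 and 4.19. The order of mice was not shared: B253 had the lowest signal of *Serpina4-ps1* and *Serpina5* but the highest mutant signal of *Serpina12*. Within the mice numbered in the two-hundreds (mutant B253, controls B256 and B267) the log2 fold changes of *Serpina12*, *Serpina4-ps1* and *Serpina5* were -0.19, -3.13 and -1.21. Within the three-hundreds (mutants B304 and B305, control B302) they were -1.33, -0.76 and -0.42. All 6 values lay below 0, but the 3 genes were picked for lower signals in these same mice, so the shared sign is not separate support.

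**Figure D4:**
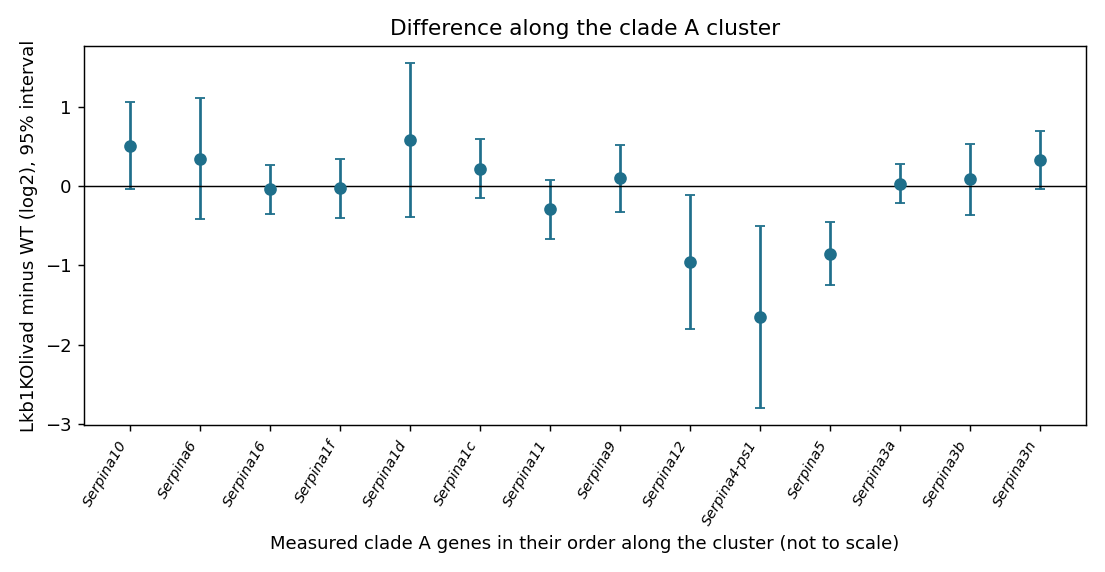
Log2 fold change (Lkb1KOlivad minus WT) with its 95% interval from limma for the 14 measured genes of the clade A cluster, in their order along the chromosome and not to scale. *Serpina12*, *Serpina4-ps1* and *Serpina5* stand side by side with intervals below 0, and the intervals of all other genes include 0.

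The promoter windows of both protein-coding genes of this trio are shown so that the sequence beside the lower signals can be read. Each runs 5′ to 3′ from 250 bases before to 50 after the RefSeq transcription start, in build GRCm38.p6, at chr12:104100863-104101162 on the plus strand for *Serpina5* and at chr12:104044394-104044693 on the minus strand for *Serpina12*. Capitals mark the letters of ATCAAT, the core bound by the Onecut factors of hepatocytes, on either strand.
Serpina5: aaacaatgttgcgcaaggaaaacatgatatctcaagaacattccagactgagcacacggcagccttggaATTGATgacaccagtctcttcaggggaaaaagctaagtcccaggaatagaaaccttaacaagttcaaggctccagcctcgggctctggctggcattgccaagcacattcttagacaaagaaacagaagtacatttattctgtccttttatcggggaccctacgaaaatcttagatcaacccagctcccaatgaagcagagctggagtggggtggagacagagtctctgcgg
Serpina12: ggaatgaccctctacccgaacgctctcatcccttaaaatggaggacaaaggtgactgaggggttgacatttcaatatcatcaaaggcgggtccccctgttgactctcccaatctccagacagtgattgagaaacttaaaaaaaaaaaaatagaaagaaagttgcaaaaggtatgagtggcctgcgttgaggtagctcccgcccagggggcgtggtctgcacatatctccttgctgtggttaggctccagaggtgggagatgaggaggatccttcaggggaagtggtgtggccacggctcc
RefSeq windows were found for 41 of the 48 serpins (49 windows), and a C57BL/6J reference stands in for FVB/N mice. ATCAAT was present on either strand in 7 of the 49 serpin windows (14.3%) and in 7.54% of all 32851 windows. Its genes were *Serpina1d*, *Serpina5*, the bright *Serpinf2* and the dim *Serpinb12*, *Serpinb3a*, *Serpinb3c* and *Serpinb9c*. GTTAAT, bound by HNF1, was present in 7 serpin windows (14.3%) and in 7.1% of all, with *Serpina1c* its only bright serpin. TATAAA was present in 15 (30.6%) and in 13.6% of all, and TTCNNNGAA, the STAT site, in 7 (14.3%) and in 8.3% of all. No bright serpin with a window held either of these last motifs, and the bright *Serpina4-ps1* had no window. The shares rest on few windows and were not tested. CAAAGTCCA, a site for HNF4, was present in 0 serpin windows and in 0.475% of all windows. Letters were searched on both strands, and matches of different motifs may overlap. Of these 5 motifs, the window of *Serpina5* held only ATCAAT and that of *Serpina12* held none.

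The other 9 bright serpins, most of which encode protease inhibitors of plasma, had 95% intervals that include 0. *Serpinc1* encodes antithrombin, the inhibitor of thrombin and factor Xa. Its signals were 11.86, 11.69 and 11.66 in the mutants and 11.65, 11.76 and 11.64 in the controls, for a log2 fold change of 0.05 (95% interval -0.21 to 0.31). *Serpind1*, heparin cofactor II, had 10.85, 10.91 and 10.79 in the mutants and 10.43, 10.91 and 10.76 in the controls, for a log2 fold change of 0.15 (95% interval -0.17 to 0.48) that was 0.02 without control B256 and 0.26 without control B267. Both anticoagulant genes had overlapping groups. *Serping1*, the C1 inhibitor of complement and kallikrein, had 11.77, 11.63 and 11.55 against 11.54, 11.73 and 11.43, a log2 fold change of 0.09 (95% interval -0.20 to 0.37) that ranged from 0.02 without control B302 and without mutant B253 to 0.17 without control B267. *Serpinf1*, the anti-angiogenic pigment epithelium-derived factor, had 10.72, 10.53 and 10.57 against 10.49, 10.70 and 10.58, a log2 fold change of 0.02 (95% interval -0.25 to 0.28). For *Serpinc1*, *Serping1* and *Serpinf1*, the within-group SD of 0.0918 to 0.134 was below that of the median gene (0.172).

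For several bright serpins 1 mouse stood apart or the controls were widely spread. *Serpina10*, the protein Z-dependent inhibitor of factor Xa, had signals of 10.87, 10.07 and 9.98 in the mutants and of 9.86, 10.03 and 9.50 in the controls. B253 stood above all others, and the log2 fold change of 0.51 (SE 0.242, 95% interval -0.04 to 1.06) was 0.23 without it. It was 0.92 within the two-hundreds and 0.53 within the three-hundreds, and 0.72 with the number series as a block (limma, adjusted p = 0.644). *Serpinf2*, the α2-antiplasmin that blocks plasmin, had 10.15 in B253, while the other 5 mice lay between 9.43 and 9.51. Its log2 fold change of 0.26 (SE 0.183, 95% interval -0.15 to 0.68) was 0.04 without B253. *Serpina6*, the corticosteroid-binding globulin, had 10.44, 10.61 and 10.73 in the mutants and 9.63, 11.15 and 9.96 in the controls. The control mice spread to both sides of the mutants, and the log2 fold change was 0.35 (SE 0.335, 95% interval -0.42 to 1.11). Without control B267 it was 0.80, and without control B256 it was 0.04.

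*Serpina3n*, a protease inhibitor that belongs to the acute phase response, had signals of 11.49, 11.42 and 10.95 in the mutants and of 11.04, 10.84 and 10.99 in the controls. B253 and B304 lay above all controls and B305 lay among them, with a log2 fold change of 0.33 (0.159 SE, 95% interval -0.03 to 0.69) that was 0.50 without B305. Of 17 measured acute phase genes, 16 had a log2 fold change above 0, beside 51.6% of all genes, with a median of 0.16. None passed, and 3 were higher at an unadjusted p under 0.05, beside 1.52% of all genes: *Saa2*, *Saa1* and *Saa3* of the serum amyloid A family, with log2 fold changes of 2.24 (SE 0.569), 1.36 (SE 0.431) and 0.67 (SE 0.251). *Saa1* and *Saa2* are close copies that the probes may not separate. The mean deviation of the 17 genes from their control means was 0.69, 0.25 and 0.12 in the mutants and -0.12, 0.13 and -0.01 in the controls. B253 was the highest mouse for this list, for *Serpina3n*, *Serpina10*, *Serpinf2*, *Serpinf1*, *Serpinc1* and *Serping1*. It was not the highest for the bright *Serpind1*, *Serpina1c* and *Serpina6*, and it was the lowest of all mice for *Serpina4-ps1*. The part of the acute phase level in these values was not tested.

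**Figure D5:**
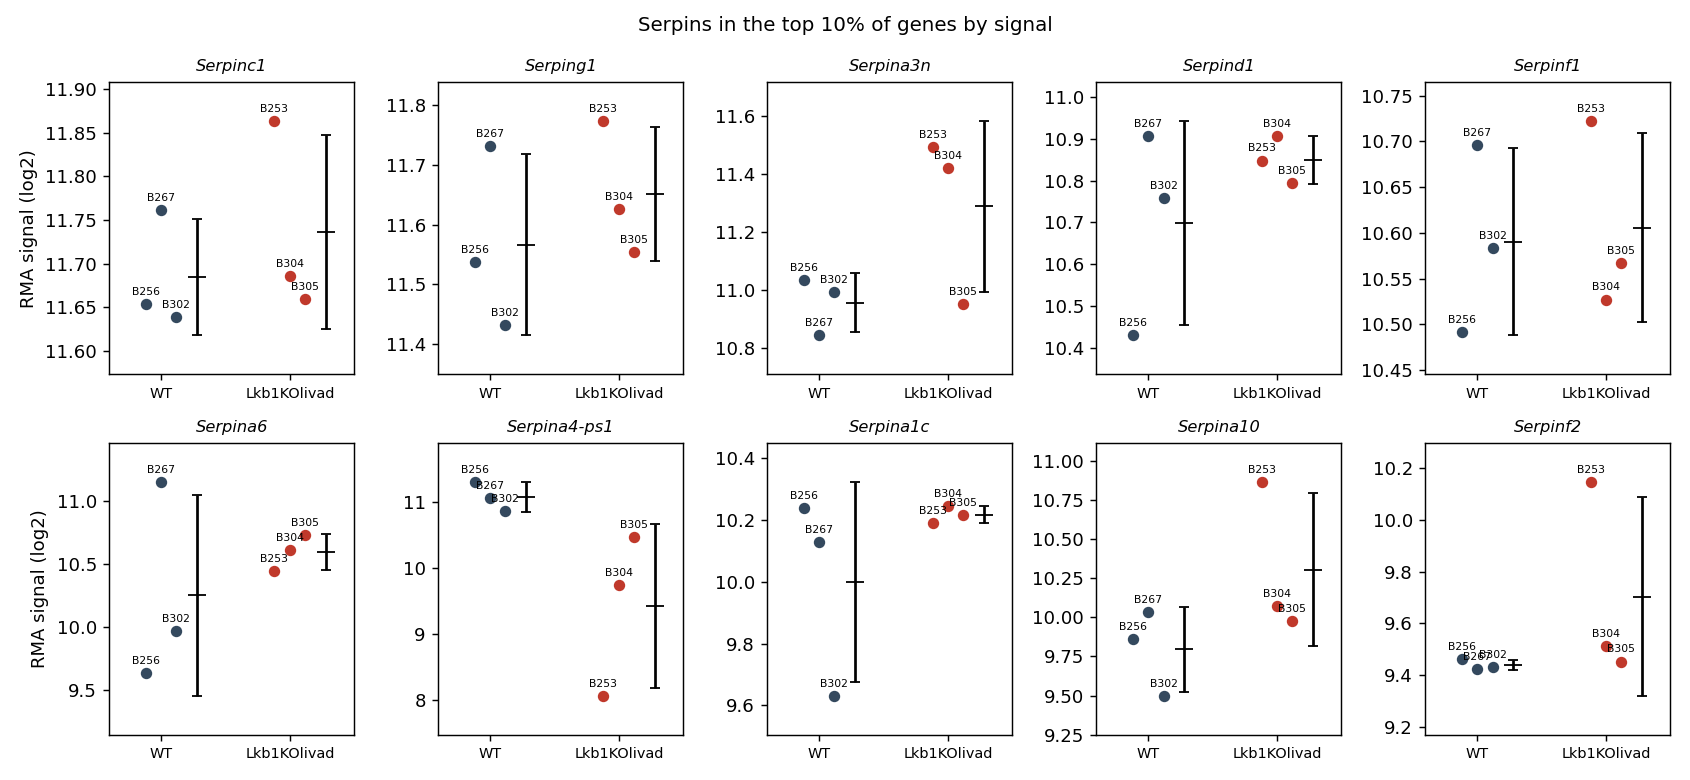
RMA signal (log2) of the 10 serpins in the top 10% of genes by genotype, 1 point per mouse with its number, where black marks give the group mean ± SD and each gene has an own axis. The groups overlap for all except *Serpina4-ps1*, and B253 stands apart from the other 5 mice for *Serpina10* (10.87) and *Serpinf2* (10.15).

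The genes of α1-antitrypsin, the main inhibitor of neutrophil elastase, are near-identical copies in the mouse, so a probe set named for 1 of them may report several. *Serpina1c* had signals of 10.19, 10.24 and 10.22 in the mutants and of 10.24, 10.13 and 9.63 in the controls, for a log2 fold change of 0.22 (95% interval -0.15 to 0.59) that was 0.03 without control B302 and 0.34 without control B256. *Serpina1d* had 6.96, 8.99 and 7.55 in the mutants and 7.07, 7.35 and 7.35 in the controls. B304 stood alone, and the log2 fold change of 0.58 (SE 0.427) was 0.00 without it. A pair of probe sets listed 5 *Serpina1* genes each and were therefore not counted as members. Their means were 11.59 in mutants and 11.60 in controls for one, and 12.24 and 12.15 for the other, differences of -0.01 and 0.09. Another 3 probe sets listed 4 *Serpinb9* genes each, with signals of 3.26 to 3.94 and differences of 0.06 to 0.07.

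Some serpins varied widely between mice of the same genotype. A within-group SD over 0.5 was found for 6 of 48 serpins (12.5%), beside 2.11% of all genes: *Serpina4-ps1*, *Serpina7*, *Serpina1d*, *Serpina12*, *Serpina6* and *Serpinb1a*. *Serpina7*, the thyroxine-binding globulin, had 6.04, 4.94 and 4.63 in the mutants and 5.06, 6.41 and 4.67 in the controls, so 1 mouse of each group was high. *Serpinb1a*, an inhibitor of neutrophil elastase in granulocytes, had 5.66, 4.67 and 4.54 against 3.93, 4.95 and 4.36, a log2 fold change of 0.54 (0.330 SE, 95% interval -0.21 to 1.29). It was 0.19 without B253, 0.30 without B256 and 0.81 without B267. The 8 neutrophil markers deviated from their control means by a mean of 0.39, 0.20 and -0.07 in B253, B304 and B305 and by -0.06, 0.34 and -0.28 in B256, B267 and B302, so both readings were highest in B253 and B267, and the part of neutrophils was not tested.

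Within clade B, 19 of 24 genes had a log2 fold change above 0 and 5 below, beside 51.6% of all genes above 0. The clade median was 0.08, and 0 of these genes had an unadjusted p under 0.05. The range was -0.18 (*Serpinb8*) to 0.54 (*Serpinb1a*). The 3 mutant values lay above the 3 control values for *Serpinb3c*, at 2.95, 2.98 and 3.10 against 2.84, 2.88 and 2.77, and for *Serpinb7* (megsin), at 2.45, 2.41 and 2.48 against 2.26, 2.35 and 2.30. The log2 fold changes were 0.19 (SE 0.110) and 0.14 (SE 0.106), with an exact permutation p = 0.1 each. Only 4.44% and 0.456% of all genes were dimmer than *Serpinb3c* and *Serpinb7*. *Serpinb6a* ranged from 6.08 to 6.35 in the mutants and from 5.35 to 6.47 in the controls.

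*Serpinh1* had signals of 5.11, 5.32 and 5.24 in the mutants and of 5.28, 5.39 and 5.35 in the controls, for a log2 fold change of -0.12 (0.113 SE, 95% interval -0.38 to 0.14). Of 11 measured collagens and collagen-folding proteins, which Hsp47 assists, 0 passed and 1 was higher at an unadjusted p under 0.05, beside 1.52% of all genes. It was *P4ha1*, a subunit of prolyl hydroxylase, with a log2 fold change of 0.55 (0.225 SE). *Col1a2* had a log2 fold change of -0.30 (0.134 SE), and the median of the list was -0.01. The stellate cell markers, whose cells make most liver collagen, had a median of -0.25 as given above, and their part in these values was not tested.

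Partners of the serpins were compared in the same way. Of 20 measured target proteases of coagulation, fibrinolysis, complement and immune granules, 0 passed and 0 had an unadjusted p under 0.05, with a median log2 fold change of 0.02 and the smallest p for *Gzmb* (granzyme B) at -0.21 (95% interval -0.48 to 0.07). Of 20 protease inhibitors of other families, 0 passed, with a median of 0.01. The leukocyte protease inhibitor *Slpi* was the only 1 of the 20 higher at an unadjusted p under 0.05 (log2 fold change 1.12), beside 1.52% of all genes. Of 5 measured receptors that clear lipoproteins and serpin complexes, 0 passed and 0 had an unadjusted p under 0.05, with a median of 0.01. *Lrp1*, the main receptor for such complexes, had a log2 fold change of 0.23 (0.225 SE). Its signal was 9.35 in B253 and 8.34 to 8.82 in the other mice, and without B253 the log2 fold change was -0.02. *Agt*, angiotensinogen, is a serpin by descent though not by symbol, and its signals of 9.84 to 10.02 in the mutants and 9.86 to 10.13 in the controls overlapped, with a log2 fold change of -0.06 (95% interval -0.34 to 0.22).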

How the data were processed

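Liver RNA of 6 mice was hybridised to Affymetrix mouse gene arrays. The authors deposited log2 RMA signals (background corrected, normalised and summarised per probe set); per the labels, RMA and Partek were used, of versions not given in the sources used here. A later array generation is named in the methods, but the deposited probe set identifiers are those of the earlier array whose annotation was used here. Of 35556 probe sets, 21789 had 1 symbol, updated by gene identifier where found (21698), and 1621 had several. The brightest probe set per gene gave 19938 genes, with no intensity filter. Groups were compared with limma 3.58.1 (lmFit, eBayes, two-sided, Benjamini-Hochberg over all genes, threshold 0.05) in R 4.3.3, and the procedure was tested on simulated data. Single genes had an exact permutation test of 3 against 3 mice. The labels do not say whether mice shared a litter, so p-values cover the spread between these mice only, and the precision is limited by the 6 arrays. Alternatives were quantile normalization, median centring, leaving out dim genes, averaging probe sets, an intensity trend (robust), the methods' t-test, array weights, the mouse number series (two-hundreds or three-hundreds) as a block, and each mouse left out. Values in each mouse are given for serpins in the top 10% by signal, those at an unadjusted p under 0.05 or with groups that do not overlap, and the 5 largest changes, with *Serpina7*, *Serpinh1*, *Serpinb6a* and the flanking genes added after their values were seen; other genes are those of the lists with the smallest p. The members and lists were chosen with earlier results of these data known. Plots were made in Python 3.11.15 (matplotlib 3.10.9).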

Additional observations from a re-analysis of the deposited data

How the results depend on the processing

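No serpin had an adjusted p under 0.05 under any of the 14 alternatives, the methods' t-test included (3 at an unadjusted p under 0.05: *Serpina5*, *Serpinb3c* and *Serpinb7*), and the family median stayed between 0.04 and 0.10. The count of genes called over the array was 0 in the methods' t-test and 0 to 1 with a mouse left out (1 without control B302 only). The gene concerned was *Stk11*, at -1.64 in the t-test and at -1.71 to -1.57 with a mouse left out. At an unadjusted p under 0.05, the count of 3 serpins became 5 with a block for the series of mouse numbers (*Serpina10*, *Serpina4-ps1*, *Serpina5*, *Serpinb1a* and *Serpinf2*). It was 2 to 6 with a mouse left out. The 6 without mutant B253 were *Serpina11*, *Serpina12*, *Serpina1d*, *Serpina4-ps1*, *Serpina5* and *Serpinb11*. The 5 without control B267 were *Serpina10*, *Serpina4-ps1*, *Serpina5*, *Serpina6* and *Serpinb1a*. *Serpina5* was among the serpins at that p in all 14 alternatives. Of 221 values of the 16 named serpins, 5 changed sign, all near 0: *Serpinc1* ranged from -0.012 (without B253) to 0.090 with a mouse left out, and *Serpinf1* from -0.043 (without B253) through -0.034 (without B256) to 0.068, beside -0.029 with quantile normalization and -0.0056 with array weights. The cause was not tested. No paired analysis was possible because the labels give the mice no shared replicate numbers.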
